A study of Mus musculus with 12 samples.

Results

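The 10 genes described here encode the receptor complex that detects lipopolysaccharide (LPS), several Toll-like receptors and the pair of adaptor proteins that carry their signal. They are Tlr2, Tlr3, Tlr4, Tlr7 and Tlr9, the LPS-handling genes Cd14, Ly96 and Lbp, and the adaptors Myd88 and Ticam1. They were taken by gene name, and all 10 were found among the 56748 genes of the deposited expression table. Messenger RNA had been sequenced from whole brain of 12 adult C57BL/6 mice, a common inbred laboratory strain, with 1 library for each mouse. In the LPS+DMA arm, mice received LPS into the abdominal cavity at 0.5 mg/kg daily over 7 days, together with daily N,N-dimethylacetamide (DMA), an organic solvent also used as a drug carrier. How much DMA was given is not stated in the labels. In the LPS arm, mice received the same LPS schedule without DMA, and in the PBS arm they received phosphate-buffered saline. Each arm held 4 mice, 2 females and 2 males, and brains were taken on day 7. The title of the study names the lessening by DMA of brain inflammation caused by LPS, so the main question for these genes is how LPS+DMA brains compare with LPS brains.

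LPS is the outer membrane glycolipid of Gram-negative bacteria. LPS binding protein, the product of Lbp, is mainly a liver acute-phase protein that extracts LPS from bacterial membranes and hands it to CD14, which passes it to MD-2, the product of Ly96. MD-2 sits on the outer face of TLR4, and LPS bound in its pocket brings receptor pairs together. TLR4 then signals through MyD88 towards NF-kB and, after uptake into endosomes, through TRIF, the product of Ticam1, towards interferon regulatory factors. TLR2 detects bacterial lipoproteins at the cell surface, whereas TLR3, TLR7 and TLR9 detect nucleic acids inside endosomes. TLR3 signals through TRIF, and TLR2, TLR7 and TLR9 signal through MyD88. In brain, most of these receptors are best known from microglia, the resident macrophages.

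Promoter windows of Tlr2, Tlr3 and Myd88 are shown first, to set the letters next to genes known to respond to NF-kB or interferon signalling beside the values that follow. RefSeq windows of 250 bases before to 50 bases after the gene start were matched by symbol for 5 of the 10 members, namely Tlr2, Tlr3, Tlr9, Myd88 and Ticam1. They are on build GRCm38.p6, whereas all gene positions given later are on GRCm39. The Tlr2 window lies at chr3:83841559-83841858, the Tlr3 window at chr8:45410331-45410630 and the Myd88 window at chr9:119339969-119340268, all on the minus strand. Capitals in Tlr2 and Tlr3 mark matches to the NF-kB-like pattern GGGNNNNNCC, and capitals in Myd88 mark the match to the interferon-response-like pattern GAAANNGAAA, with both strands searched.
Tlr2: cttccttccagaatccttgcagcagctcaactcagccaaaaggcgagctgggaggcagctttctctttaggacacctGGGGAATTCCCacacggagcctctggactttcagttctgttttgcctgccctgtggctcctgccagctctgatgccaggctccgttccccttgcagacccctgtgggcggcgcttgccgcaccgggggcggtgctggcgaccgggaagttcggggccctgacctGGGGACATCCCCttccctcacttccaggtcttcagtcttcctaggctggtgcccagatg
Tlr3: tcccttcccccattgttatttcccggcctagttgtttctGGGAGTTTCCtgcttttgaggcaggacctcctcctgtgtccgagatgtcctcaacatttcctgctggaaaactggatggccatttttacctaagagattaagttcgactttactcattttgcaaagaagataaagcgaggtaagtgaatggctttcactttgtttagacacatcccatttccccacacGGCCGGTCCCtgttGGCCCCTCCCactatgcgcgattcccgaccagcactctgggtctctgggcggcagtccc
Myd88: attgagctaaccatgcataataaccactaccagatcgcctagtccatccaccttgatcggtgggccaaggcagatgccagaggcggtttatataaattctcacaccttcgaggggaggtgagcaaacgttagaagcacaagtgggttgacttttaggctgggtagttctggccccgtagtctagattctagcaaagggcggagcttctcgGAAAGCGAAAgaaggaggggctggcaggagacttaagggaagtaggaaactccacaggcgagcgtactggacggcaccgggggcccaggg
In Tlr2 the NF-kB-like matches overlap each other in 2 blocks, which start at positions -173 and -9 from the gene start. In Tlr3 matches start at -211, -23 and -9, and in Ticam1 at -23. The interferon-response-like match of Myd88 starts at -40. Of 32544 mouse promoter windows of the same length, 51.0% hold the NF-kB-like pattern and 3.45% hold the interferon-response-like pattern. The PU.1-like pattern GAGGAA, present in 28.1% of windows, was found in Tlr9 and Ticam1, and the AP-1-like pattern TGANTCA, present in 7.79%, was found in Tlr9. These matches describe letters in a window and do not show binding.

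Libraries held about 27533400 (LPS+DMA male replicate 2) to 41368800 (PBS female replicate 1) reads, recovered from the deposited values as described under processing. Between the 66 pairs of libraries, chi-square per degree of freedom was at least 27.6, so no library was a copy of another. Some libraries went against the label of whole brain. The cerebellar granule cell gene Gabra6 exceeded 1 FPKM in LPS female replicate 1, LPS male replicates 1 and 2 and PBS female replicate 1. Summed forebrain markers stood at 56.1 to 87.5 FPKM in those 3 LPS libraries, against 351 to 861 FPKM in the other 9 libraries. LPS female replicate 2 held 0.0499% ribosomal RNA reads, against 3.60% to 10.9% in the other libraries. LPS+DMA male replicate 1 had the lowest summed level of 11 microglial markers, 51.7 FPKM, against 90.7 to 174 FPKM elsewhere. Neuronal genes defined the tissue in every library, with Snap25 at 246 to 427 FPKM. FPKM are fragment counts scaled by the authors for gene length and library size, so levels of different genes can be set side by side.

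None of the members passed the test in any comparison, although the LPS arm had the highest mean of the 3 arms for 8 of the 10. The test was limma on log2(FPKM + 1) over 19571 genes and 12 libraries, with sex as a covariate and Benjamini-Hochberg adjusted p under 0.05. A gene entered it with at least 0.5 FPKM in at least 2 libraries, which 9 members did and Tlr9 did not. Between LPS+DMA and LPS brains 9.67% of all genes tested were called, and 0 of 9 members. Between LPS and PBS brains 0.0102% of genes were called and 0 of 9 members, and between LPS+DMA and PBS brains likewise 0.0102% and 0 of 9. At an unadjusted p under 0.05, limma gave 4 members in LPS+DMA against LPS (Tlr2, Cd14, Ly96 and Lbp) beside 5564 of all genes. It gave 3 in LPS against PBS (Tlr2, Cd14 and Lbp) beside 2145, and 1 in LPS+DMA against PBS (Ly96) beside 2235. limma-voom on recovered reads also called 0 members in each comparison. The plot of members by library shows the underlying values.

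**Figure D1:**
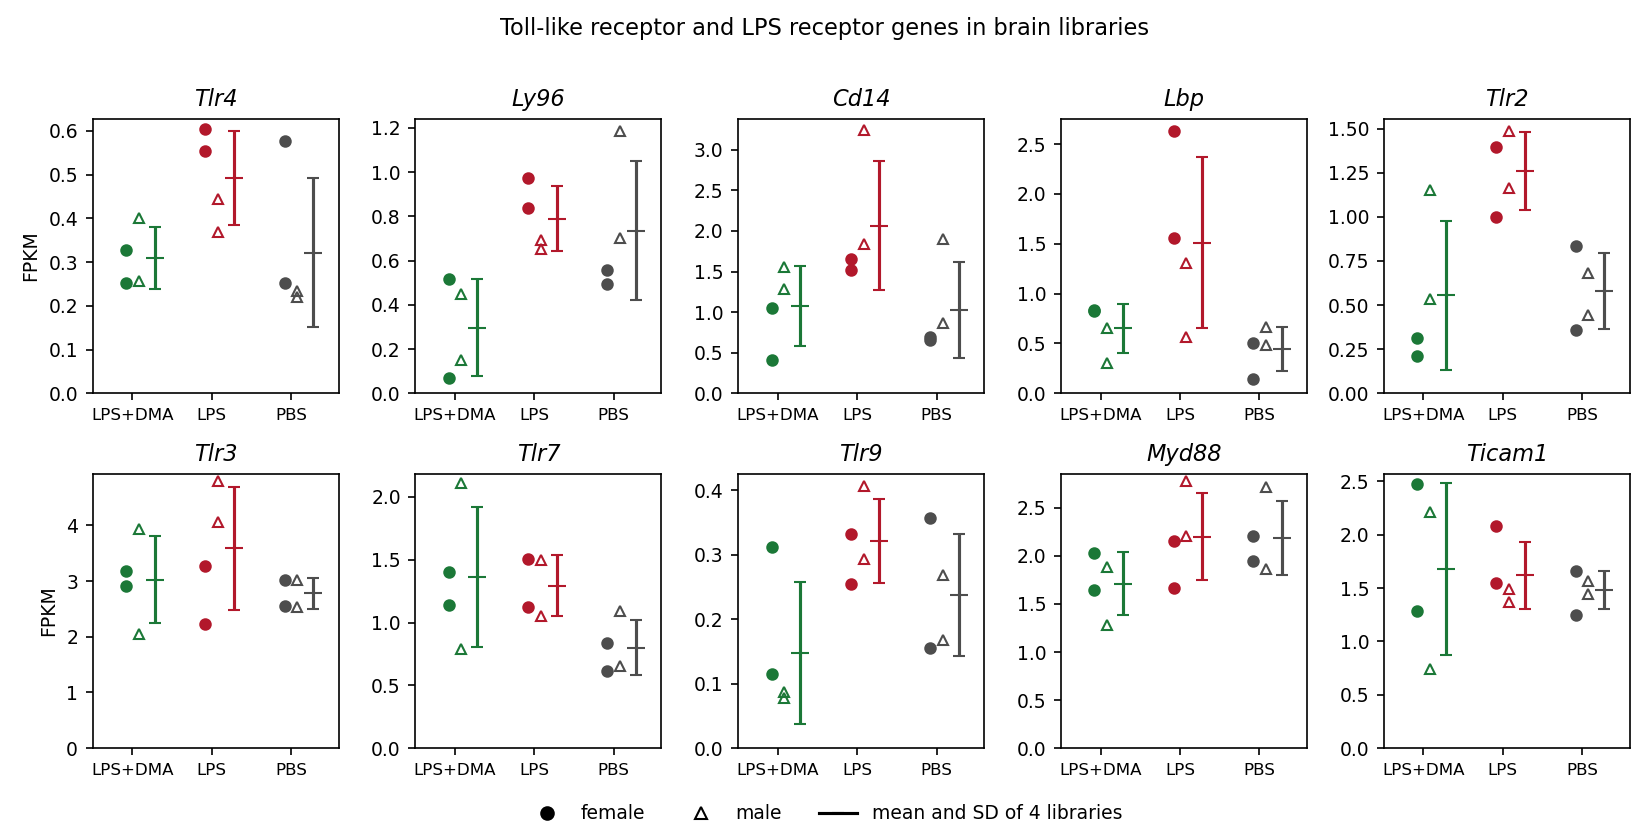
FPKM (vertical axis) of the 10 members in each library of the LPS+DMA, LPS and PBS arms, with filled circles for females, open triangles for males and bars for mean and SD of 4 libraries. In Ly96 all LPS+DMA libraries lie below all LPS libraries, in Tlr2 all LPS libraries lie above all PBS libraries, and Myd88 and Ticam1 overlap in every pair of arms.

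Ly96, which encodes the LPS-binding subunit MD-2, was the member that separated LPS+DMA from LPS brains without overlap. It had 0.516 and 0.0713 FPKM in LPS+DMA females and 0.448 and 0.151 FPKM in LPS+DMA males, 0.838 and 0.974 FPKM in LPS females and 0.694 and 0.651 FPKM in LPS males, and 0.496 and 0.558 FPKM in PBS females and 0.704 and 1.19 FPKM in PBS males. All LPS+DMA libraries were below all LPS libraries, and the LPS and PBS libraries overlapped. The gene lies on GRCm39 chromosome 1 from 16758275 to 16779835, on the plus strand. The means were 0.297 ± 0.219 FPKM in LPS+DMA and 0.789 ± 0.147 FPKM in LPS brains (SD, n = 4 each). The log2 change of (FPKM + 1) was -0.48 (SE 0.16, limma adjusted p = 0.0867), on a scale where the added 1 compresses changes of weakly expressed genes. Against the PBS mean of 0.736 ± 0.313 FPKM (SD, n = 4), the change in LPS+DMA was -0.42 (limma adjusted p = 0.394) and that in LPS was 0.056 (limma adjusted p = 0.931). Scaled to plain library totals, Ly96 passed the test in LPS+DMA against LPS, at -0.54 (limma adjusted p = 0.0472, with a range of 0.0472 to 1 over the alternatives). Under that scaling the median log2 change of all genes was -0.11, against 0.010 as reported. The Ly96 levels rest on few reads. LPS+DMA libraries held 2 to 18 Ly96 reads, LPS libraries 26 to 31 and PBS libraries 21 to 39. The 2 reads of LPS+DMA female replicate 2 have an exact 95% Poisson interval of 0.00863 to 0.257 FPKM, which covers counting error only.

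Tlr4, the signalling receptor for LPS, was among the lowest members in every arm. It had 0.253 and 0.327 FPKM in LPS+DMA females and 0.401 and 0.256 FPKM in LPS+DMA males, 0.605 and 0.554 FPKM in LPS females and 0.444 and 0.368 FPKM in LPS males, and 0.253 and 0.576 FPKM in PBS females and 0.220 and 0.235 FPKM in PBS males. The LPS libraries were mostly highest, but LPS+DMA male replicate 1 and PBS female replicate 2 reached into their range. The means were 0.309 ± 0.0702 FPKM in LPS+DMA, 0.493 ± 0.107 FPKM in LPS and 0.321 ± 0.170 FPKM in PBS brains (SD, n = 4 each). On the log2 scale the change was -0.19 (SE 0.12, limma adjusted p = 0.333) for LPS+DMA against LPS and 0.18 (SE 0.12, limma adjusted p = 0.621) for LPS against PBS. Tlr4 lies on GRCm39 chromosome 4 from 66745821 to 66848521, on the plus strand. An lncRNA on the same strand lies within its span, at 0 to 0.905 FPKM, and a split of reads between them was not tested.

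Cd14, which encodes the coreceptor that delivers LPS to the MD-2 pocket, was the most abundant of the LPS-handling members. It had 0.406 and 1.05 FPKM in LPS+DMA females and 1.55 and 1.29 FPKM in LPS+DMA males, 1.65 and 1.52 FPKM in LPS females and 3.24 and 1.84 FPKM in LPS males, and 0.691 and 0.657 FPKM in PBS females and 0.861 and 1.90 FPKM in PBS males. LPS+DMA and LPS libraries overlapped only in that LPS+DMA male replicate 1 was just above LPS female replicate 2. LPS and PBS overlapped through PBS male replicate 2, which stood apart from the other PBS libraries. The mean was 1.07 ± 0.490 FPKM in LPS+DMA, 2.06 ± 0.796 FPKM in LPS and 1.03 ± 0.589 FPKM in PBS brains (SD, n = 4 each). The fitted log2 change was -0.57 (SE 0.18, limma adjusted p = 0.0706) for LPS+DMA against LPS and 0.60 (SE 0.18, limma adjusted p = 0.311) for LPS against PBS. LPS+DMA and PBS brains differed by 0.038 (limma adjusted p = 0.948). Scaled to plain library totals, Cd14 passed the test in LPS+DMA against LPS, at -0.67 (limma adjusted p = 0.0338, with a range of 0.0338 to 1 over the alternatives). Under that scaling the median log2 change of all genes was -0.11, against 0.010 as reported.

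Lbp, the gene of the LPS transfer protein, had the largest fitted change of the members between LPS and PBS brains, yet it did not pass the test. It had 0.836 and 0.821 FPKM in LPS+DMA females and 0.651 and 0.302 FPKM in LPS+DMA males, 2.63 and 1.55 FPKM in LPS females and 1.30 and 0.561 FPKM in LPS males, and 0.500 and 0.140 FPKM in PBS females and 0.667 and 0.482 FPKM in PBS males. LPS libraries were higher than all others except LPS male replicate 2, which lay within the range of LPS+DMA and PBS. The means were 0.653 ± 0.248 FPKM in LPS+DMA, 1.51 ± 0.857 FPKM in LPS and 0.447 ± 0.221 FPKM in PBS brains (SD, n = 4 each). Fitted on the log2 scale, the change was -0.55 (SE 0.22, limma adjusted p = 0.129) for LPS+DMA against LPS and 0.74 (SE 0.22, limma adjusted p = 0.311) for LPS against PBS. The gene lies on GRCm39 chromosome 2 from 158148413 to 158174772, on the plus strand. Choroid plexus markers were also mostly higher in LPS libraries. Their sum was 2002 and 1393 FPKM in LPS females and 1331 and 252 FPKM in LPS males, the same order of libraries as for Lbp. In LPS+DMA brains the sum was 498 and 56.4 FPKM in females and 22.8 and 44.3 FPKM in males, an order that differed from Lbp in the males. In PBS brains it was 411 and 38.5 FPKM in females and 51.2 and 58.4 FPKM in males, in another order than Lbp. Choroid plexus and red blood cell marker scores were fitted together as covariates, so the part of either was not tested. In that fit the change of Lbp was -0.041 for LPS+DMA against LPS and 0.28 for LPS against PBS. Over the alternatives the adjusted p of Lbp ranged over 0.0738 to 1 and 0.142 to 1 in those comparisons.

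Tlr2, the lipoprotein receptor, was the member whose LPS libraries all exceeded all PBS libraries. It had 0.214 and 0.314 FPKM in LPS+DMA females and 1.15 and 0.536 FPKM in LPS+DMA males, 0.998 and 1.39 FPKM in LPS females and 1.49 and 1.16 FPKM in LPS males, and 0.832 and 0.360 FPKM in PBS females and 0.442 and 0.680 FPKM in PBS males. Of the LPS+DMA libraries, only male replicate 1 reached the LPS range, and the other 3 were below every LPS library. The means were 0.554 ± 0.422 FPKM in LPS+DMA, 1.26 ± 0.222 FPKM in LPS and 0.578 ± 0.217 FPKM in PBS brains (SD, n = 4 each). On the log2 scale the change was -0.57 (SE 0.17, limma adjusted p = 0.0592) for LPS+DMA against LPS and 0.52 (SE 0.17, limma adjusted p = 0.324) for LPS against PBS. LPS+DMA and PBS brains differed by -0.048 (limma adjusted p = 0.930). Without LPS+DMA male replicate 1, the change against LPS was -0.72 and Tlr2 passed the test (limma adjusted p = 0.0347, with a range of 0.0253 to 1 over the alternatives). That library was the only one of its arm in the LPS range, so leaving it out also removed the overlap. Scaled to plain library totals, Tlr2 changed by -0.65 against LPS and also passed (limma adjusted p = 0.0341). Under that scaling the median log2 change of all genes was -0.11, against 0.010 as reported. The gene lies on GRCm39 chromosome 3 from 83743579 to 83749074, on the minus strand.

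The endosomal receptors did not follow a common pattern. Tlr3, the receptor for double-stranded RNA, had 3.18 and 2.92 FPKM in LPS+DMA females and 2.05 and 3.94 FPKM in LPS+DMA males, 3.26 and 2.23 FPKM in LPS females and 4.07 and 4.79 FPKM in LPS males, and 3.03 and 2.56 FPKM in PBS females and 2.53 and 3.02 FPKM in PBS males. The 3 arms overlapped, with 3 of the 4 LPS libraries, those with a cerebellar signal, above all PBS libraries. Tlr3 lies on GRCm39 chromosome 8 from 45848702 to 45864117, on the minus strand. The log2 change of Tlr3 was -0.18 (SE 0.19, limma adjusted p = 0.562) for LPS+DMA against LPS and 0.25 (SE 0.19, limma adjusted p = 0.663) for LPS against PBS. With the cerebellar libraries left out, the change of LPS against PBS was -0.20, the opposite sign, and the LPS arm then held 1 library. Tlr3 shares bases with the opposite-strand lncRNA Gm45542, at 0 to 0.608 FPKM, and without a stated strand setting their reads cannot be told apart.

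Tlr7, the receptor for single-stranded RNA, had a slightly higher mean in LPS+DMA than in LPS brains, well within the spread. It had 1.14 and 1.40 FPKM in LPS+DMA females and 2.11 and 0.791 FPKM in LPS+DMA males, 1.12 and 1.51 FPKM in LPS females and 1.497 and 1.05 FPKM in LPS males, and 0.840 and 0.618 FPKM in PBS females and 1.09 and 0.654 FPKM in PBS males. The LPS+DMA range spanned the whole LPS range, and LPS and PBS overlapped through LPS male replicate 2 and PBS male replicate 1. The mean was 1.36 ± 0.558 FPKM in LPS+DMA, 1.29 ± 0.243 FPKM in LPS and 0.800 ± 0.216 FPKM in PBS brains (SD, n = 4 each). The log2 change was 0.017 (SE 0.18, limma adjusted p = 0.961) for LPS+DMA against LPS, or -0.091 under scaling to plain library totals, where the median of all genes was -0.11. It was 0.37 (limma adjusted p = 0.450) for LPS+DMA against PBS and 0.35 (SE 0.18, limma adjusted p = 0.493) for LPS against PBS. The highest LPS+DMA value came from male replicate 1, the library with the lowest summed microglial markers. The gene lies on GRCm39 chromosome X from 166087925 to 166113554, on the minus strand.

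Tlr9, the receptor for unmethylated CpG DNA, was the lowest member and was compared by exact permutation of its mean FPKM. It had 0.311 and 0.115 FPKM in LPS+DMA females and 0.0878 and 0.0774 FPKM in LPS+DMA males, 0.254 and 0.332 FPKM in LPS females and 0.407 and 0.294 FPKM in LPS males, and 0.357 and 0.156 FPKM in PBS females and 0.168 and 0.268 FPKM in PBS males. Apart from female replicate 1, the LPS+DMA libraries were below every LPS and PBS library. The LPS+DMA mean was 0.174 FPKM below the LPS mean (two-sided exact permutation p = 0.0857 over 70 regroupings, the smallest p possible being 0.0286). LPS+DMA female replicate 1 was the only library of its arm in the LPS range. Leaving it out therefore removed the overlap and fixed the exact permutation p at the smallest possible, 0.0286, so that p adds no evidence. The LPS mean exceeded the PBS mean by 0.0845 FPKM (two-sided exact permutation p = 0.2). Tlr9 counts were 7 to 37 reads in LPS+DMA, 30 to 54 in LPS and 20 to 54 in PBS libraries. The gene lies on GRCm39 chromosome 9 from 106099797 to 106104082, on the plus strand.

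The adaptor genes overlapped between all arms. Myd88, the adaptor of most Toll-like receptors, had 1.65 and 2.03 FPKM in LPS+DMA females and 1.28 and 1.88 FPKM in LPS+DMA males, 2.15 and 1.67 FPKM in LPS females and 2.78 and 2.202 FPKM in LPS males, and 1.95 and 2.21 FPKM in PBS females and 1.86 and 2.71 FPKM in PBS males. All 3 arms overlapped, and the LPS and PBS means of Myd88 were nearly equal, at 2.201 ± 0.455 FPKM in LPS and 2.183 ± 0.383 FPKM in PBS brains (SD, n = 4 each). The log2 change of Myd88 was -0.24 (SE 0.15, limma adjusted p = 0.315) for LPS+DMA against LPS and 0.0047 (SE 0.15, limma adjusted p = 0.995) for LPS against PBS. Myd88 lies on GRCm39 chromosome 9 from 119165000 to 119170477, on the minus strand, and overlaps the opposite-strand gene Acaa1a over 1736 bases. Acaa1a, at 6.71 to 13.9 FPKM, was more abundant than Myd88 in these libraries, and Myd88 also lies within the span of Slc22a14, at 0 to 0.150 FPKM. Which library preparation was used is not stated, so Myd88 values may include reads of Acaa1a, which was not tested.

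Ticam1, the adaptor of TLR3 and of the endosomal TLR4 pathway, spread more widely in LPS+DMA brains than in LPS or PBS brains. It had 1.28 and 2.48 FPKM in LPS+DMA females and 0.745 and 2.21 FPKM in LPS+DMA males, 1.55 and 2.08 FPKM in LPS females and 1.37 and 1.49 FPKM in LPS males, and 1.25 and 1.66 FPKM in PBS females and 1.57 and 1.44 FPKM in PBS males. The LPS+DMA libraries held both the highest and the lowest values of Ticam1 in the series. The mean was 1.68 ± 0.807 FPKM in LPS+DMA, 1.62 ± 0.314 FPKM in LPS and 1.48 ± 0.178 FPKM in PBS brains (SD, n = 4 each). The log2 change was -0.015 (SE 0.20, limma adjusted p = 0.971) for LPS+DMA against LPS and 0.077 (SE 0.20, limma adjusted p = 0.922) for LPS against PBS. The gene lies on GRCm39 chromosome 17 from 56576319 to 56583786, on the minus strand.

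Across the members, 8 of 10 means were lower in LPS+DMA than in LPS brains, the exceptions being Tlr7 and Ticam1. The fitted change of Ticam1 was nevertheless -0.015, and that of Tlr7 was 0.017, or -0.091 under scaling to plain library totals, which also moved the median of all genes to -0.11, against 0.010 as reported. By fitted change in LPS+DMA against LPS, 1 of the 9 tested members was above 0, beside 51.2% of all genes tested. The median log2 change was -0.24 for the 9 tested members and 0.010 for all genes. All 10 means were higher in LPS than in PBS brains. By fitted change there, 9 of 9 tested members were above 0, beside 48.3% of all genes tested. The median was 0.25 for the tested members and -0.0093 for all genes. Between LPS+DMA and PBS brains 5 means were higher and 5 lower, with medians of 0.038 and 0.00014. LPS brains enter both of the first comparisons, so their directions are not independent of each other. Arms without overlap were found for 1 of 9 tested members in LPS+DMA against LPS (Ly96), where 12.2% of all genes tested were without overlap. They were found for 1 of 9 in LPS against PBS (Tlr2), where the share of all genes was 6.89%, and for 0 of 9 in LPS+DMA against PBS, where it was 6.64%. The plot of fitted changes sets these values beside their errors. For the difference of the changes between males and females, limma called 0 of 9 members in each comparison. The share of all genes called for that difference is not given. Each arm held 2 libraries of each sex, so 0 calls do not show that the changes were alike in these members. The smallest unadjusted p, 0.0306, was that of Lbp for LPS against PBS, with a change of 1.22 in females and 0.27 in males, a difference of -0.95 (male minus female, SE 0.37, limma adjusted p = 1).

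**Figure D2:**
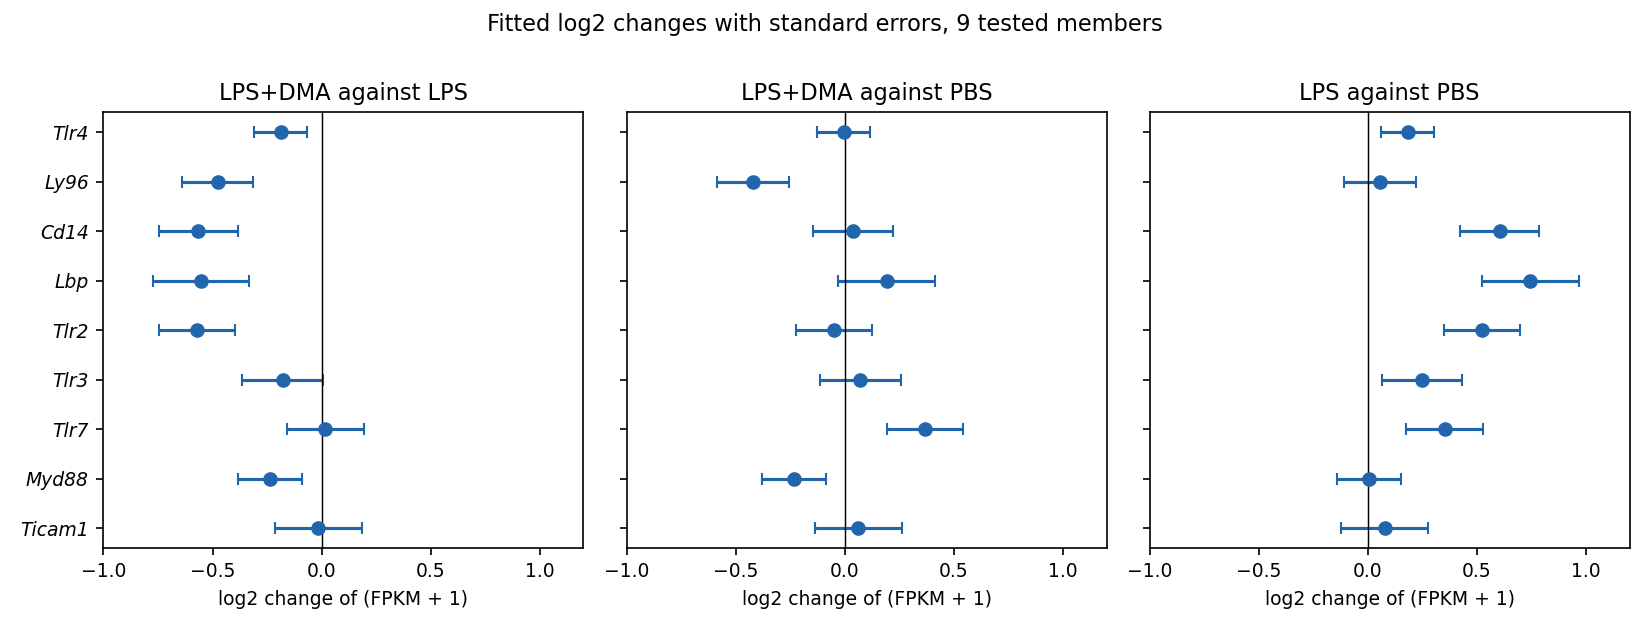
Fitted log2 change of (FPKM + 1) of the 9 tested members (points) with its standard error (bars) in LPS+DMA against LPS, LPS+DMA against PBS and LPS against PBS. Ly96, Cd14, Lbp and Tlr2 lie between -0.48 and -0.57 in the first panel, and Cd14, Lbp and Tlr2 lie between 0.52 and 0.74 in the third, with no member past the threshold.

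Markers of the cells that carry these receptors moved with the arms. The sum of 11 microglial markers was 51.7 to 105 FPKM in LPS+DMA, 126 to 174 FPKM in LPS and 90.8 to 115 FPKM in PBS libraries, so that the LPS libraries exceeded all others. In LPS+DMA against LPS, 3 of the 11 were lower at the threshold, Siglech and Csf1r among them, and none was higher. In whole tissue, fewer cells of a type and less RNA per cell cannot be told apart. Divided by that sum, as a percent of it, Tlr2 was 0.203 to 2.23 in LPS+DMA, 0.782 to 1.18 in LPS and 0.313 to 0.916 in PBS libraries. The same ratio of Ly96 was 0.0730 to 0.868 in LPS+DMA, 0.492 to 0.656 in LPS and 0.485 to 1.07 in PBS libraries. The highest Ly96 ratio of the LPS+DMA arm, 0.868, belonged to male replicate 1, the library with the lowest microglial sum, and the other 3 LPS+DMA ratios were below every LPS ratio. Tlr2 overlapped between LPS+DMA and LPS with and without this division. With a microglial score as covariate, Tlr2 changed by -0.89 in LPS+DMA against LPS (limma adjusted p = 0.0253, with a range of 0.0253 to 1 over the alternatives), and Ly96 by -0.49 (limma adjusted p = 0.189, range 0.0472 to 1).

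Marker sums of other cells differed in range between arms. Neutrophil markers, 8 genes, summed to 3.97 to 17.2 FPKM in LPS+DMA, 2.24 to 55.2 FPKM in LPS and 0.235 to 1.51 FPKM in PBS libraries. Border macrophage markers, 8 genes, summed to 2.26 to 6.36 FPKM in LPS+DMA, 4.30 to 6.66 FPKM in LPS and 2.30 to 4.36 FPKM in PBS libraries. Red blood cell markers, 5 genes, summed to 29.0 to 296 FPKM in LPS+DMA, 243 to 946 FPKM in LPS and 71.1 to 116 FPKM in PBS libraries, and B cell markers, 5 genes, to 3.38 to 16.6, 10.5 to 18.0 and 7.84 to 11.5 FPKM in LPS+DMA, LPS and PBS libraries. Endothelial markers, 7 genes, summed to 66.8 to 109 FPKM in LPS+DMA, 86.3 to 108 FPKM in LPS and 60.5 to 70.2 FPKM in PBS libraries, so that LPS and PBS did not overlap. Oligodendrocyte markers, 5 genes, summed to 376 to 844 FPKM in LPS+DMA, 904 to 1787 FPKM in LPS and 462 to 1292 FPKM in PBS libraries. LPS+DMA and LPS did not overlap in this sum. It was 1309 to 1787 FPKM in the 3 LPS libraries with a cerebellar signal and 904 FPKM in LPS female replicate 2. Astrocyte markers, 7 genes, summed to 461 to 575, 543 to 690 and 490 to 579 FPKM in LPS+DMA, LPS and PBS libraries. Monocyte markers, 5 genes, stayed at or below 2.44 FPKM in sum. No marker on these lists was at 0 in all libraries of an arm. The part of these cells in the members' values was not tested beyond the covariates named. The heat map places members and marker sums side by side.

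**Figure D3:**
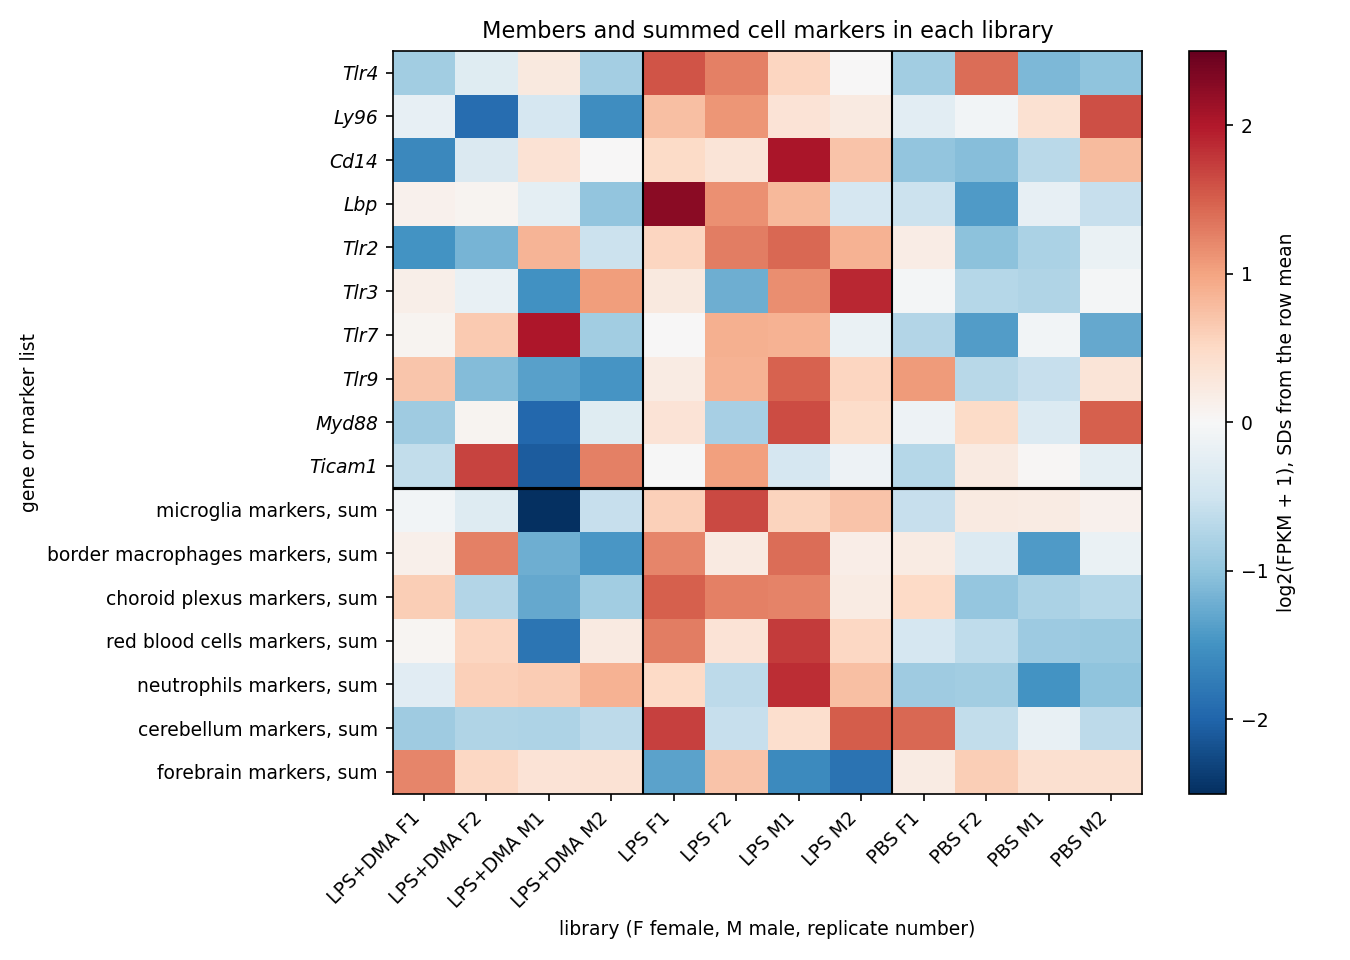
Each row is a member (upper block) or a summed marker list (lower block) and each column a library, coloured by log2(FPKM + 1) in SDs from the row mean. Most members are above their mean in the LPS columns, as are the microglial and choroid plexus sums, while LPS+DMA male replicate 1 combines the lowest microglial sum with the highest Tlr7 value.

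Over all 12 libraries together, Tlr3 and the adaptors had the highest mean levels. Averaged over 12 libraries, Tlr3 stood at 3.13 FPKM, Myd88 at 2.03, Ticam1 at 1.59, Cd14 at 1.39, Tlr7 at 1.15, Lbp at 0.871, Tlr2 at 0.798, Ly96 at 0.607, Tlr4 at 0.374 and Tlr9 at 0.236 FPKM. Tlr3 exceeded Myd88 in 12 of 12 libraries and Tlr7 exceeded Lbp in 10 of 12. Myd88 over Ticam1, Ly96 over Tlr4 and Tlr4 over Tlr9 held in 9 of 12 libraries, Tlr2 over Ly96 in 8, Ticam1 over Cd14 and Cd14 over Tlr7 in 7, and Lbp over Tlr2 in 5. The ranges of every pair of neighbours overlapped when all 12 libraries were pooled. Within an arm, some neighbours did not overlap, with the first above the second in 4 of 4 libraries. These were Tlr3 over Myd88 in LPS+DMA brains, Cd14 over Tlr7, Tlr2 over Ly96 and Ly96 over Tlr4 in LPS brains, and Myd88 over Ticam1 in PBS brains. In LPS brains Ticam1 exceeded Cd14 in 1 of 4 libraries, and the Cd14 mean, 2.06 FPKM, was above the Ticam1 mean, 1.62 FPKM.

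The genes whose profile over the 12 libraries was most like that of a member were found by the root mean square difference of standardised log2 values among 14089 other protein-coding genes. For Tlr2 these were Slc39a8, a zinc transporter gene (0.331 SD), and Nans (0.373 SD). For Cd14 they were Itgb1, an integrin subunit gene (0.404 SD), and Nfkb1, an NF-kB subunit gene (0.410 SD). Those of Tlr4 were Dcn (0.384 SD), which encodes a matrix proteoglycan, and Bmp6 (0.552 SD), and those of Tlr7 were C1d (0.277 SD) and Paqr5 (0.402 SD). Ly96 was nearest to B3gat3 (0.458 SD) and Tex38 (0.461 SD), and Lbp to Drc7 (0.408 SD) and Ace (0.429 SD). Tlr3 was nearest to Ube4a (0.374 SD) and Lrrc1 (0.378 SD), Myd88 to Rasl12 (0.442 SD) and Gimap8 (0.477 SD), and Ticam1 to Rrp7a (0.371 SD) and Btbd2 (0.408 SD). These are the closest of many candidates and describe the 12 libraries only.

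Partner genes of the same pathway did pass the test in LPS+DMA against LPS. Of 91 further genes of Toll-like receptor signalling and LPS sensing, 64 were tested, and 11 were lower and 2 higher in LPS+DMA than in LPS brains by limma. Of all 19571 genes tested in that comparison 9.67% were called, 759 lower and 1133 higher. In LPS against PBS 0 of 64 were called, with 42 changes above 0, where 48.3% of all genes had one, and in LPS+DMA against PBS 0 of 64, with 32 above 0. Of the 9 further receptors and receptor partners, 3 were tested and Ly86 was lower. Of 26 further adaptors, kinases and transcription factors, 23 were tested and Irf7 was lower. Of 10 genes of receptor folding and trafficking, all were tested and Unc93b1 and Lgmn were lower. Of 13 negative regulators, 10 were tested, with Tnip1 lower and Cyld higher. Of 13 other genes of LPS binding and sensing, 9 were tested and 5 were lower, namely Trem2, Itgam, Itgb2, Gbp2 and Pltp. Of 20 transcriptional targets, 9 were tested, with Ccl5 lower and Ptgs2 higher. Pltp was named after its values had been seen. Calls over all genes numbered 1892 as reported and 11 without LPS female replicate 1. They numbered 7 without LPS male replicate 1 and 22 without LPS male replicate 2. The count of 13 pathway genes fell to 0 without LPS male replicate 1 or without LPS male replicate 2. That count was 2 without LPS female replicate 1, and 8 without LPS+DMA female replicate 2 or without PBS male replicate 2. It was also 0 with the cerebellar libraries left out, and without LPS female replicate 2 the count in LPS against PBS was 7 rather than 0.

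Ly86 encodes MD-1, the MD-2 relative that partners the Toll-like receptor homologue CD180. It had 1.68 and 1.57 FPKM in LPS+DMA females and 0.782 and 0.931 FPKM in LPS+DMA males, 3.004 and 4.39 FPKM in LPS females and 3.71 and 3.46 FPKM in LPS males, and 1.51 and 1.67 FPKM in PBS females and 1.83 and 1.80 FPKM in PBS males. Every LPS library lay above every library of the other arms. The log2 change was -1.06 (SE 0.15, limma adjusted p = 0.0172) for LPS+DMA against LPS and 0.77 (SE 0.15, limma adjusted p = 0.179) for LPS against PBS. Unc93b1 encodes the chaperone that brings TLR3, TLR7 and TLR9 to endosomes. It had 2.98 and 2.53 FPKM in LPS+DMA females and 2.54 and 2.41 FPKM in LPS+DMA males, 3.64 and 6.49 FPKM in LPS females and 5.75 and 5.52 FPKM in LPS males, and 3.12 and 3.54 FPKM in PBS females and 2.95 and 4.01 FPKM in PBS males. All LPS+DMA libraries were below all LPS libraries, and LPS female replicate 1 lay within the PBS range. The change was -0.79 (SE 0.15, limma adjusted p = 0.0213) for LPS+DMA against LPS and 0.51 (limma adjusted p = 0.311) for LPS against PBS.

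Lgmn, Irf7, Trem2, Itgam, Ccl5 and Tnip1 also had all LPS+DMA libraries below all LPS libraries, whereas Cyld, Ptgs2 and Gbp2 overlapped. These genes were named for their small p, which favours arms without overlap, and 12.2% of all genes tested had no overlap in this comparison. Lgmn, the gene of the asparagine endopeptidase that cuts endosomal receptors, averaged 37.1 ± 5.46 FPKM in LPS+DMA and 54.3 ± 5.43 FPKM in LPS brains (SD, n = 4 each; limma adjusted p = 0.0225). Irf7, an interferon regulatory factor downstream of TLR7 and TLR9, averaged 0.363 ± 0.293 FPKM in LPS+DMA and 1.36 ± 0.412 FPKM in LPS brains (SD, n = 4 each; limma adjusted p = 0.0241). Trem2, a microglial lipid receptor, averaged 1.06 ± 0.451 FPKM in LPS+DMA and 2.69 ± 0.561 FPKM in LPS brains (SD, n = 4 each; limma adjusted p = 0.0219). Microglial markers, among them 3 of 11 at the threshold, were lower in the same brains, and their part in these values was not tested beyond the covariate fit, under which 4 of the 64 genes were called. Itgam, the complement receptor 3 alpha chain, averaged 0.597 ± 0.243 FPKM in LPS+DMA and 1.48 ± 0.285 FPKM in LPS brains (SD, n = 4 each; limma adjusted p = 0.0259). Ccl5, a chemokine gene induced through interferon regulatory factors, averaged 0.411 ± 0.473 FPKM in LPS+DMA and 2.18 ± 0.958 FPKM in LPS brains (SD, n = 4 each; limma adjusted p = 0.0240). Tnip1, which binds A20 to restrain NF-kB, averaged 5.95 ± 0.498 FPKM in LPS+DMA and 8.01 ± 0.628 FPKM in LPS brains (SD, n = 4 each; limma adjusted p = 0.0306).

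The exceptions in direction were a deubiquitinase and a prostaglandin synthase gene. Cyld, which removes ubiquitin chains from signalling proteins of this pathway, averaged 20.6 ± 5.38 FPKM in LPS+DMA and 10.1 ± 3.35 FPKM in LPS brains (SD, n = 4 each), a log2 change of 0.97 (limma adjusted p = 0.0240). Ptgs2, the inducible cyclooxygenase gene, averaged 2.52 ± 0.585 FPKM in LPS+DMA, 1.24 ± 1.11 FPKM in LPS and 2.38 ± 0.706 FPKM in PBS brains (SD, n = 4 each), and the change of LPS+DMA against LPS was 0.76 (limma adjusted p = 0.0399). Both genes are also expressed by neurons, and their LPS+DMA and LPS libraries overlapped. Ptgs2 was at 0.368 to 1.198 FPKM in the 3 LPS libraries with a cerebellar signal and at 2.81 FPKM in LPS female replicate 2. Cyld was at 7.93 to 9.37 FPKM in those 3 libraries and at 15.1 FPKM in LPS female replicate 2. With the forebrain minus cerebellum covariate the change was 0.63 for Cyld (limma adjusted p = 0.524) and 0.24 for Ptgs2 (limma adjusted p = 0.713). The lower genes Ly86, Unc93b1, Lgmn, Irf7, Trem2, Itgam, Ccl5 and Tnip1 also no longer passed the test under this covariate. Their limma adjusted p ranged from 0.161 for Ly86, at a change of -1.29, to 0.510 for Irf7, at -0.56.

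**Figure D4:**
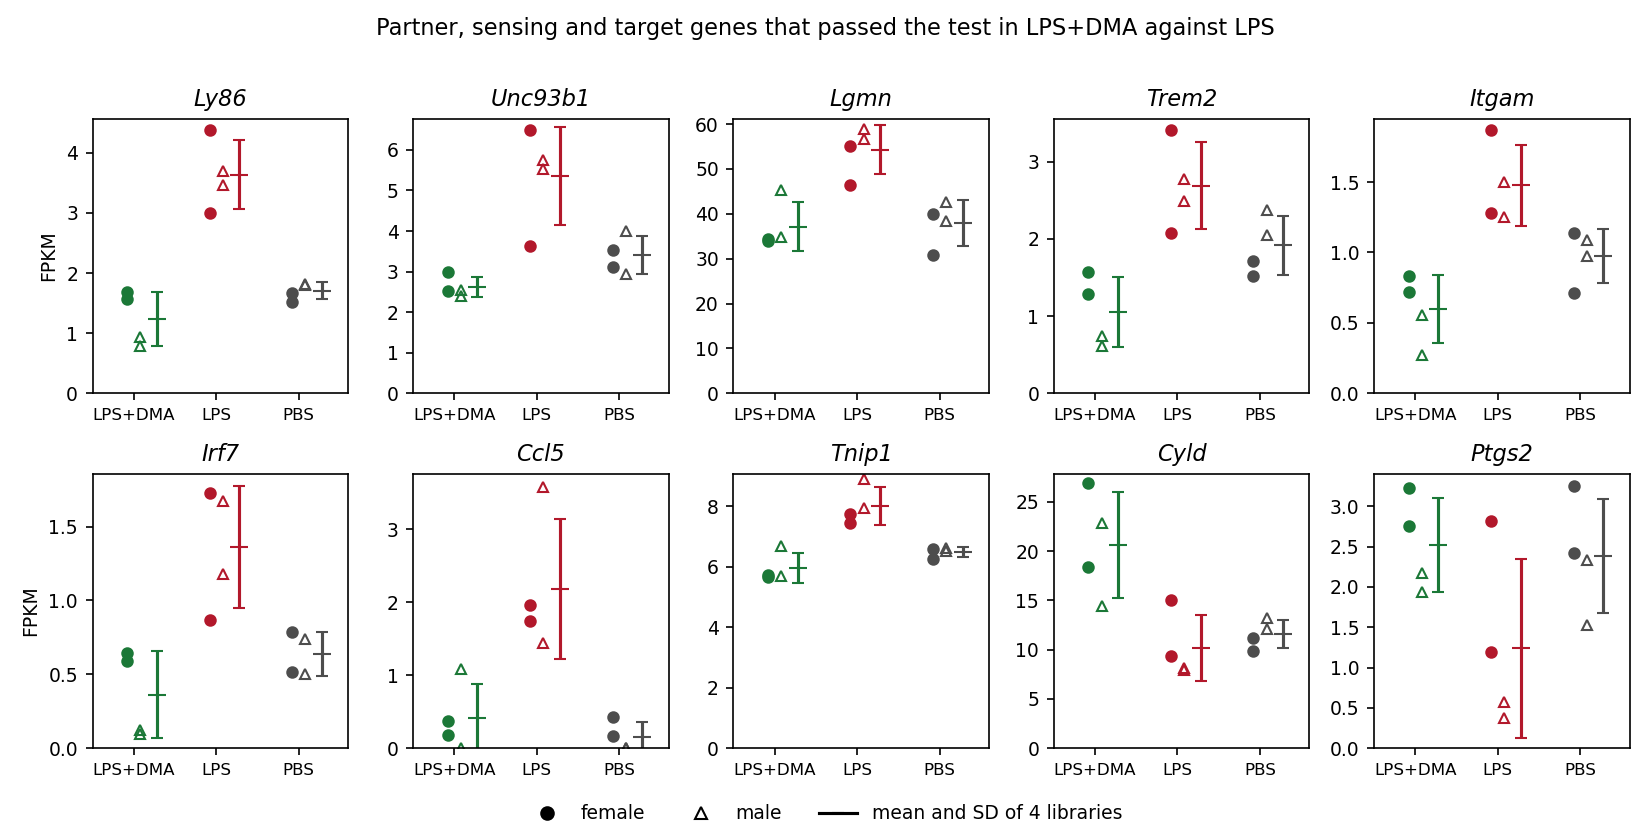
FPKM (vertical axis) of the 10 named partner, sensing and target genes in each library of the LPS+DMA, LPS and PBS arms, with filled circles for females, open triangles for males and bars for mean and SD of 4 libraries. In 8 of the 10 genes all LPS+DMA libraries lie below all LPS libraries, and in Cyld and Ptgs2 the LPS+DMA mean is above the LPS mean.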

How the data were processed

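Poly-A RNA of whole mouse brain was measured in 12 libraries, grouped by the treatment and sex in the labels, 1 mouse each. The authors deposited 1 table of FPKM for each gene and library, with a gene length column (a length in bases, unit other) that served to recover reads. The submitters' processing notes list the aligners HISAT2 2.2.1 and STAR, the counter featureCounts 2.0.6, the packages edgeR 4.0.16 and DESeq2 1.42.0, also fastp and GATK, and build GRCm39, without saying how each was used. The labels describe stranded and unstranded preparations and do not say which was used. Reads recovered from the FPKM steps were whole for 100% of values up to 1000 reads, within 0.1 reads. The deposited FPKM follow median-of-ratios scaling rather than each library's plain total, as tested on the values.

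Genes with at least 0.5 FPKM in at least 2 of 12 libraries (19571) were fitted with limma 3.58.1 in R 4.3.3 on log2(FPKM + 1), with sex as covariate, trended robust variances and Benjamini-Hochberg adjustment over all genes. Tlr9, below that filter, was tested by exact permutation in Python 3.11.15 with scipy 1.17.1. The fit was tested on simulated data. The members and all gene lists were chosen with earlier results of these data known. Beside the members, the text names from each pathway list and comparison genes among the 2 with the smallest p, and for each tested member the 2 protein-coding genes most like it. Alternatives changed the pseudocount, filter, scaling, model terms, marker covariates and libraries; those for pathway genes were chosen after seeing the data. p-values set differences between arms against the spread between these libraries, 1 for each mouse. That spread includes the cerebellar signal of 4 libraries.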

Additional observations from a re-analysis of the deposited data

Results flagged for a closer look

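In 11 of 84 groups of 4 libraries tested, 1 library stood apart from the other 3, its gap to the nearest, as a share of the group's range, exceeding Dixon's critical value, which chance alone passes in about 1 in 20 groups. Among the members these were Tlr9 in LPS+DMA female replicate 1 (0.311 FPKM), Tlr4 in PBS female replicate 2 (0.576 FPKM) and Cd14 in PBS male replicate 2 (1.90 FPKM), each the highest of its arm. Lgmn (45.3 FPKM) and Tnip1 (6.69 FPKM) were highest of their arm in LPS+DMA male replicate 1. LPS+DMA female replicate 1 had the highest choroid plexus sum (498 FPKM) and forebrain sum (861 FPKM) of its arm. LPS female replicate 2 had the highest microglial sum (174 FPKM) and forebrain sum (553 FPKM) of its arm. PBS female replicate 1 had the highest choroid plexus sum (411 FPKM) and cerebellum sum (395 FPKM) of its arm.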

How the results depend on the processing

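Of 666 values of the members' log2 changes under the alternatives, 606 kept their direction and side of the threshold, 5 newly passed it and 55 changed sign. Of 892 values of the named pathway genes, 774 kept both, 99 no longer passed the threshold, 13 newly passed it and 6 changed sign. No cause of these shifts was tested. In LPS+DMA against LPS, 3 members were called under scaling to plain library totals (Tlr2, Cd14 and Ly96), which moved the median log2 change of all genes to -0.11, against 0.010 as reported, and gave 588 higher and 2284 lower calls, against 1133 and 759. With the microglial covariate 1 member was called, and leaving out 1 library gave 0 to 1. The calls over all genes numbered 0 to 3465 in that comparison, 0 to 672 in LPS against PBS and 0 to 6 in LPS+DMA against PBS. The 13 pathway genes called became 1 with no filter, 4 with the microglial covariate and 0 with only the 2 arms, with the forebrain minus cerebellum covariate, with the choroid plexus and red blood cell covariates or without the 4 cerebellar libraries. Leaving out 1 library gave 0 to 19. In LPS against PBS 2 pathway genes were called with the microglial covariate, and 0 to 7 with 1 library left out. With a replicate block, 0 members and 15 pathway genes were called in LPS+DMA against LPS, and 0 and 0 in each of the other comparisons. The correlations of deviations between same-numbered libraries were 0.036 and -0.071 for LPS+DMA and LPS females and males, -0.057 and 0.13 for LPS+DMA and PBS, and 0.45 and -0.022 for LPS and PBS. They did not all exceed 0.1 and the labels give no pairing, so the numbers were not used to pair libraries.

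The log2 changes that reversed follow. Without the 4 cerebellar libraries, which leaves LPS with 1 library assumed to vary like the others, they were Tlr3 -0.20 and Myd88 -0.33 for LPS against PBS, Tlr3 0.30, Tlr7 -0.18 and Myd88 0.054 for LPS+DMA against LPS, and Tlr2 0.092 and Ticam1 -0.015 for LPS+DMA against PBS. With the choroid plexus and red blood cell covariates they were Tlr3 -0.16, Myd88 -0.28, Irf7 -0.044 and Gbp2 -0.11 for LPS against PBS, Tlr3 0.046 for LPS+DMA against LPS, and Tlr2 0.073, Tlr3 -0.11, Tlr4 0.016, Cd14 -0.021 and Ticam1 -0.11 for LPS+DMA against PBS. With the forebrain minus cerebellum covariate they were Myd88 -0.042 for LPS against PBS, and Tlr3 0.16 and Tlr7 -0.076 for LPS+DMA against LPS. With the microglial covariate they were Myd88 -0.041 and Ticam1 -0.052 for LPS against PBS, Tlr3 0.015, Tlr7 -0.22, Ticam1 0.37 and Cd180 0.026 for LPS+DMA against LPS, and Cd14 -0.042 and Cd180 0.13 for LPS+DMA against PBS. Under scaling to plain library totals they were Tlr7 -0.091 for LPS+DMA against LPS, and Tlr3 -0.040, Cd14 -0.029 and Ticam1 -0.028 for LPS+DMA against PBS. Tlr4 for LPS+DMA against PBS was 0.018 with a pseudocount of 0.1 and 0.016 by limma-voom. With 1 library left out, LPS+DMA against PBS ranged over -0.081 to 0.16 for Cd14, -0.15 to 0.069 for Cd180, -0.082 to 0.25 for Ticam1, -0.20 to 0.073 for Tlr2, -0.019 to 0.24 for Tlr3 and -0.063 to 0.073 for Tlr4. LPS against PBS ranged over -0.0091 to 0.18 for Ly96, -0.077 to 0.087 for Myd88 and -0.0015 to 0.12 for Ticam1, and LPS+DMA against LPS over -0.16 to 0.17 for Ticam1 and -0.13 to 0.16 for Tlr7. The lowest read count in any library was 2 for Ly96, 7 for Tlr9, 22 for Tlr2, 24 for Cd14, 25 for Lbp and 37 for Tlr4.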
